A study of Drosophila melanogaster with 3 samples.

Results

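The genes of the small nuclear RNAs (snRNAs) and small nucleolar RNAs (snoRNAs) were examined for peaks of the transcription factor HLH54F in fly embryos. All genes that the Ensembl annotation types as snRNA or snoRNA on chromosomes 2, 3, 4 and X were taken, whatever their peaks. This gave 301 of the 18164 annotated genes on these 6 arms, 32 of them snRNA and 269 snoRNA genes. HLH54F is a basic helix-loop-helix (bHLH) protein of the caudal visceral mesoderm, the tissue that gives rise to the longitudinal gut muscles. The series holds 1 group of 3 biological replicates of chromatin immunoprecipitation with sequencing (ChIP-seq). Each replicate came from whole Drosophila melanogaster embryos of mixed sex, aged 0 to 24 h, that carried a transgene for HLH54F tagged with green fluorescent protein (GFP). The labels describe an antibody against GFP, although the field for the antibody itself names HLH54F. There was no second condition, so the comparisons below are between classes of genes within the same samples. In whole embryos, binding in few cells and weaker binding in many cells cannot be told apart.

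The snRNAs U1, U2, U4, U5 and U6 are the RNA cores of the major spliceosome, and U11, U12, U4atac and U6atac take their places in the minor spliceosome. U7 processes the ends of histone mRNAs, and 7SK holds the elongation factor P-TEFb in an inactive complex. Most snRNA genes are transcribed by RNA polymerase II, and U6, U6atac and 7SK by RNA polymerase III, in both cases from short promoters with a proximal sequence element upstream of the start. Most fly snoRNAs work differently: they are cut out of introns of a host gene and use the promoter of that host. Box C/D snoRNAs guide ribose methylation and box H/ACA snoRNAs guide pseudouridylation of other RNAs, and scaRNAs do so for snRNAs in Cajal bodies.

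The 40 bases from 75 to 36 before the first transcribed base are shown for the 9 snRNA genes that had a strong peak, for 3 identical copies of them that had none (U1:95Cb, U2:34ABc and U6:96Aa), and for 7SKb, a second 7SK gene that had none, to display the promoter letters that most have in common. Capitals mark ATTCNCAA, in which N is any base. The sequences are those of the Release 6 genome, read along the strand of the gene, with coordinates that equal dm6.
U1:95Ca, U1:21D, U2:34ABb, U4:39B, U5:35D, U5:63BC, U6:96Ab, U6:96Ac and 7SKa had the peaks, and U1:95Cb, U2:34ABc, U6:96Aa and 7SKb had none within 500 bp.
U1:95Ca: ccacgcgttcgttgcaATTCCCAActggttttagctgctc
U1:21D: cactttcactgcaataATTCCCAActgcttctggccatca
U1:95Cb: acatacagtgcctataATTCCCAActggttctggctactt
U2:34ABb: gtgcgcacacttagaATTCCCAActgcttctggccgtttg
U2:34ABc: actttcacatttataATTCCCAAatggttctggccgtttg
U4:39B: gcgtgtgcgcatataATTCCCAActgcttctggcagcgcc
U5:35D: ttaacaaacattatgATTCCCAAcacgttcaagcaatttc
U5:63BC: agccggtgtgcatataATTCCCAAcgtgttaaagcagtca
U6:96Ab: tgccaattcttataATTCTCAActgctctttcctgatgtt
U6:96Ac: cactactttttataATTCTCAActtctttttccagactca
U6:96Aa: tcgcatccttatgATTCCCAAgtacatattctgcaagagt
7SKa: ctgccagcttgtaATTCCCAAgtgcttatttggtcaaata
7SKb: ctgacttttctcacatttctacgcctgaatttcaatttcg
The letters ATTCNCAA stood before 31 of the 32 snRNA genes, 7SKb being the exception, with their first base 65 to 56 bases before the start (median −59). In 16 of the 32 genes their last bases, CAA, began a CANNTG, the E-box core that bHLH proteins bind, as CAACTG in 13, CAAATG in 2 and CAAGTG in 1. Among the 9 genes with a strong peak 6 had such a match.

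Peak lists were used as deposited. The optimal list, called strong peaks here, held 4246 peaks that the authors kept after an irreproducible discovery rate (IDR) procedure on the replicates. The pooled list held 23689 peaks from the reads of all 3 replicates and included weaker ones. A gene was counted when a summit lay within 500 bp of any of its bases. The signal is the authors' value for each peak, which ran from 92.7 to 3344 in the optimal list and from 27.9 in the pooled list. Replicates 1, 2 and 3 had lists of 30000, 30000 and 24914 peaks, and the 4246 of highest signal in each are called its top peaks. Ranks are by signal within a list, with 1 the strongest. Sequencing depth is unknown, so the limits it sets on weak peaks cannot be given.

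A strong summit lay near 24 of the 301 genes, 7.97% (95% Wilson interval 5.42 to 11.6%). This was below the 24.2% of all other annotated genes, most of which are longer. Among other annotated genes no longer than the longest snRNA or snoRNA gene, 444 bp, the share was 5% (104 of 2081). With the pooled list, 88 of the 301 genes were counted, 29.2%, against 55.9% of all other genes and 23.8% of those other short genes. The 24 genes shared 22 distinct strong summits. Intervals cover counting error over genes only, and genes that share a summit are not independent.

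The share differed between classes of genes. Of the 14 snRNA genes that lie outside every other annotated gene, called free-standing here, 8 had a strong summit, 57.1% (32.6 to 78.6%). The class is one of position and does not say that snRNA genes inside other genes lack their own promoter. Over all 32 snRNA genes the share was 28.1%. Of the 247 snoRNA genes inside another gene on the same strand, 11 did, 4.45% (2.50 to 7.80%). Among other genes of the same length range that lie outside every gene, the share was 4.33% (36 of 832). The pooled list gave 10 of the 14 snRNA genes and 60 of the 247 snoRNA genes. The same order was seen in every replicate's own top peaks. In replicates 1, 2 and 3, free-standing snRNA genes reached 50, 57.1 and 42.9%, and hosted snoRNA genes 4.05, 4.45 and 4.05%. Other short genes outside genes reached 5.41, 4.45 and 4.09%. The mean share was 50% ± 7.14 for the snRNA genes and 4.18% ± 0.234 for the hosted snoRNA genes (SD, n = 3 each). The difference of 45.8 percentage points ± 6.94 (SD, n = 3) was positive in 3 of 3 replicates and exceeded the spread between them. An exact two-sided sign-flip permutation test gave p = 0.25, the smallest that 3 replicates allow. The share of hosted snoRNA genes depended on the distance, from 1.62% at 250 bp to 18.6% at 1000 bp. It was 11.96% with 1 count per host and 2.43 to 2.83% without replicate 1, 2 or 3. That of the free-standing snRNA genes fell to 35.7% with the stronger 2123 strong peaks. Leaving out a replicate and taking the stronger peaks each keep only part of the strong summits, so they can only lower a share.

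**Figure D1:**
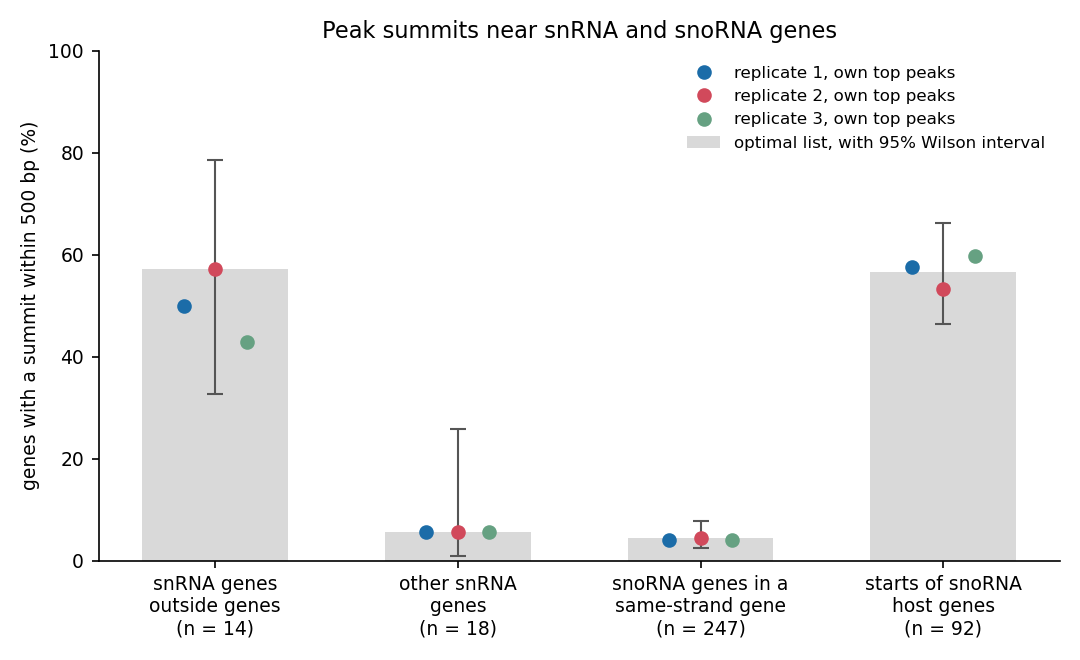
Share of genes (%, y axis) with a summit within 500 bp, in the optimal list (bars, with 95% Wilson intervals) and in each replicate's own top peaks (points). The 14 snRNA genes outside other genes and the starts of the 92 snoRNA host genes stand at 57.1 and 56.5%, the other snRNA genes and the hosted snoRNA genes at 5.56 and 4.45%.

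Position also divided the snRNA genes among themselves. The other 18 snRNA genes lie inside a gene on the same strand (11), antisense to one (6) or partly across one (1), and 1 of these 18 had a strong summit, 5.56% (0.988 to 25.8%). That share was 1 gene in each replicate's own top peaks as well. The difference between free-standing and other snRNA genes was 44.4, 51.6 and 37.3 percentage points in replicates 1, 2 and 3, with a mean of 44.4 ± 7.14 (SD, n = 3; exact sign-flip p = 0.25, the smallest possible). The letters ATTCNCAA did not divide the genes in this way, but they were chosen because most snRNA genes share them. They were found upstream of 14 of the 14 free-standing genes and of 17 of the 18 others. TATAAA, a common TATA box sequence, was found on either strand in 71.4% of the free-standing and 27.8% of the other snRNA genes. The windows ran from 250 bases before to 50 after the start, and 44.1% of all other annotated genes had a match. In the last 50 bases before the start, on the gene's own strand, only U6atac and 7SKa of the snRNA genes had it. Most of these matches thus lay elsewhere in the window or on the other strand.

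U1, which pairs with 5′ splice sites, had the strongest of these peaks. At U1:95Ca (3R:23859467-23859630, minus strand) the signal was 230, and the ranks in replicates 1, 2 and 3 were 968, 697 and 3231. All lay within the top peaks, with replicate 3 farthest down its list. At U1:21D (2L:901491-901654, minus strand) the signal was 95.2, near the lower end of the optimal list, and the ranks were 4258, 3568 and 9100, so only replicate 2 held it in its top peaks. U1:82Eb reached the pooled list only, with a signal of 50.2, ranks of 14700 and 8276 in replicates 1 and 2 and no peak in replicate 3. U1:95Cb and U1:95Cc, in introns of the same-strand gene CG34355, had no pooled summit, and their nearest strong summits lay 31461 and 32997 bp away.

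**Figure D2:**
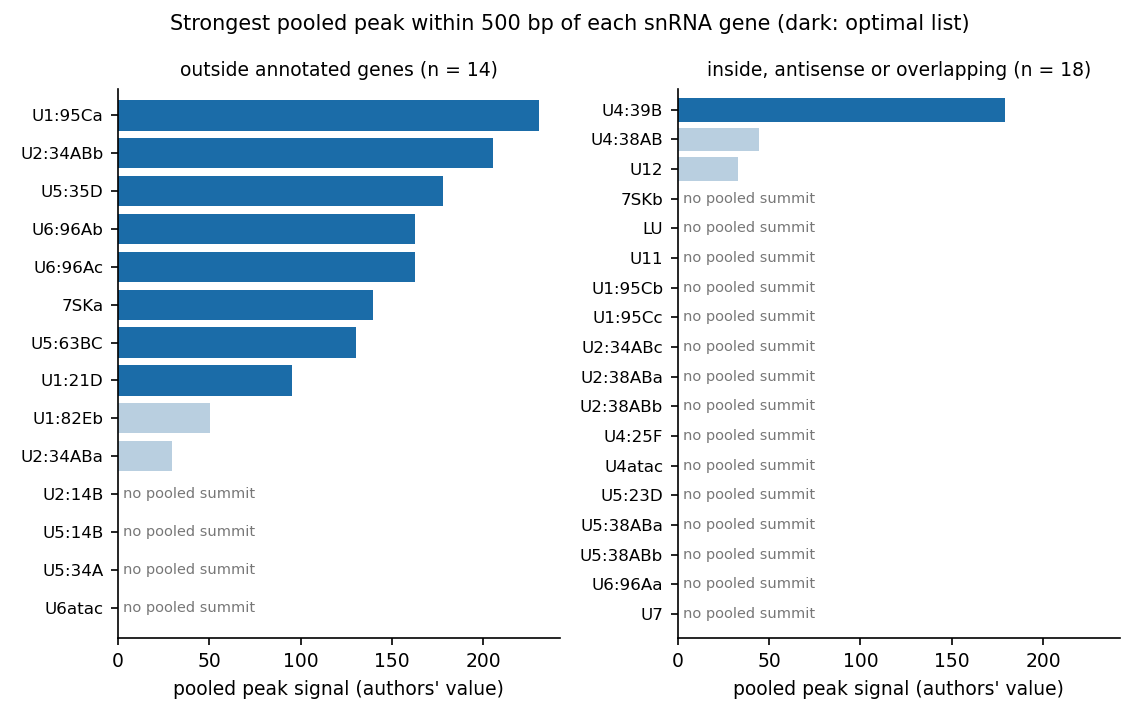
Signal (authors' value, x axis) of the strongest pooled peak within 500 bp of each snRNA gene, for the 14 genes outside other genes (left) and the other 18 (right). Dark bars are strong peaks, pale bars pooled peaks only. Of the 9 dark bars 8 are on the left.

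The 5 U1 genes were 98.2 to 100% identical, and U1:21D, U1:95Ca and U1:95Cb were identical over their whole length. No 50-base window of these 3 genes was unique in the genome. With 250 bp of flank on each side, 79.8, 79.2 and 78.2% of the 50-base windows were unique. Identical genes with flanks of similar uniqueness thus had a strong peak at U1:21D and U1:95Ca, and none at U1:95Cb. Among all snRNA genes, the median share of unique 50-base windows in the gene was 0% for the 9 with a strong summit. It was 46.2% for the 23 without. No window of the gene was unique at 5 of the 9, U6:96Ab and U6:96Ac included, and at 4 of the 23. With the flanks the medians were 88.5 and 92.6%. The sources used here do not say how reads that match several copies were placed. The height and place of a peak at any single copy are therefore uncertain, and the part of such reads in the result was not tested.

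The promoter and gene of U1:95Ca are shown from 65 bases before the start to base 190 (3R:23859441-23859695, minus strand), to display where the peak sits. Capitals mark ATTCNCAA and the 11 bases centred on the summit, which is 136 bp after the first transcribed base.
U1:95Ca: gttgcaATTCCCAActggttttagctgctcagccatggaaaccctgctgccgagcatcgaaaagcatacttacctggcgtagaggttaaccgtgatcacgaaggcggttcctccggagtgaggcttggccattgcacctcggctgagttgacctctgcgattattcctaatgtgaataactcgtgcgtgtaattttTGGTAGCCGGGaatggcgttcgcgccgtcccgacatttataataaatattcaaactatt
The summit lay 195 bp downstream of the first promoter capital, towards the end of the 164-base gene. A weaker pooled summit with a signal of 60.2 lay 90 bp before the start.

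U2, which pairs with the branch point, showed the same kind of division. U2:34ABb (2L:13215839-13216030, plus strand) had a signal of 205, ranks of 1607, 711 and 3600 and a summit 183 bp after the first base, near the end of its 192 bases. U2:34ABc has an identical gene sequence and lies antisense to asRNA:CR45330, and it had no pooled summit within 500 bp. Here the flanks differed in uniqueness, with 74.5% of 50-base windows unique at U2:34ABb and 44.5% at U2:34ABc. U2:34ABa, outside genes, had a pooled summit of signal 29.7 that was listed in replicate 2 alone, at rank 12156. U2:14B, also outside genes, had none, nor did U2:38ABa and U2:38ABb in or antisense to sick.

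U4, the partner of U6 in the tri-snRNP, and U5, which aligns the exons, were less alike between copies. The U4 genes were 73.8 to 94.4% and the U5 genes 78.3 to 96.1% identical. U4:39B (2L:21215036-21215178, minus strand) lies inside Atg18b and was the exception among the hosted snRNA genes. It had a signal of 179, ranks of 1141, 2005 and 3262 and a summit 86 bp into the gene, where 57.4% of 50-base windows were unique. U4:38AB had a pooled signal of 44.2 only, and U4:25F had no pooled summit. U5:63BC (3L:3090801-3090923, plus strand) had a signal of 130, with ranks of 2219, 2045 and 15267 and the summit 46 bp into the gene. Replicate 3 stood apart there, outside its top peaks. U5:35D (2L:15751557-15751682, minus strand) had a signal of 178 and ranks of 1738, 2269 and 1613, but its summit lay 523 bp after its first base and 81 bp from the start of ND-B17. Without genes whose summit had another gene's start within 500 bp, 53.8% of the free-standing snRNA genes had a strong summit. The U5 genes 14B, 23D, 34A, 38ABa and 38ABb had no pooled summit.

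The genes read by RNA polymerase III were U6, 7SK and U6atac. U6:96Ab and U6:96Ac, identical genes on chromosome 3R, shared 1 strong summit whose signal was 163, at ranks of 2550, 3237 and 1622. It lay 415 bp after the start of U6:96Ab and 108 bp before that of U6:96Ac. U6:96Ac was the only one of the 9 genes whose strong summit lay upstream of its own start, 47 bp before its ATTCNCAA letters. U6:96Aa, the identical copy inside Esyt2, had no pooled summit within 500 bp. Its nearest strong summit, 913 bp away, was that same shared summit, so the 500 bp limit set it apart from the other U6 genes. 7SKa (3R:7474553-7474996, minus strand) had a signal of 140, ranks of 3757, 1215 and 3675 and a summit 129 bp into the gene, all of whose 50-base windows were unique. A second strong summit with a signal of 94.9 lay 845 bp from its start, beyond the end of the gene. It lay between 7SKa and the host gene CG1142, which had a strong summit of signal 500 at its own start, so it cannot be assigned to 7SKa alone. 7SKb, 46.9% identical to 7SKa and antisense to CG4374, had no pooled summit, with the nearest strong one 95446 bp away. U6atac, outside genes, had none.

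Among the minor spliceosome and histone genes, U12 had a weak pooled peak with a signal of 33.0 that was listed in replicate 1 alone, at rank 6481. U11 had no pooled summit within 500 bp, with a strong one 669 bp away, and U7 and U4atac had none. No pooled summit was found within 500 bp of 19 snRNA genes in all, and for 17 of them the nearest strong summit was more than 3000 bp away.

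**Figure D3:**
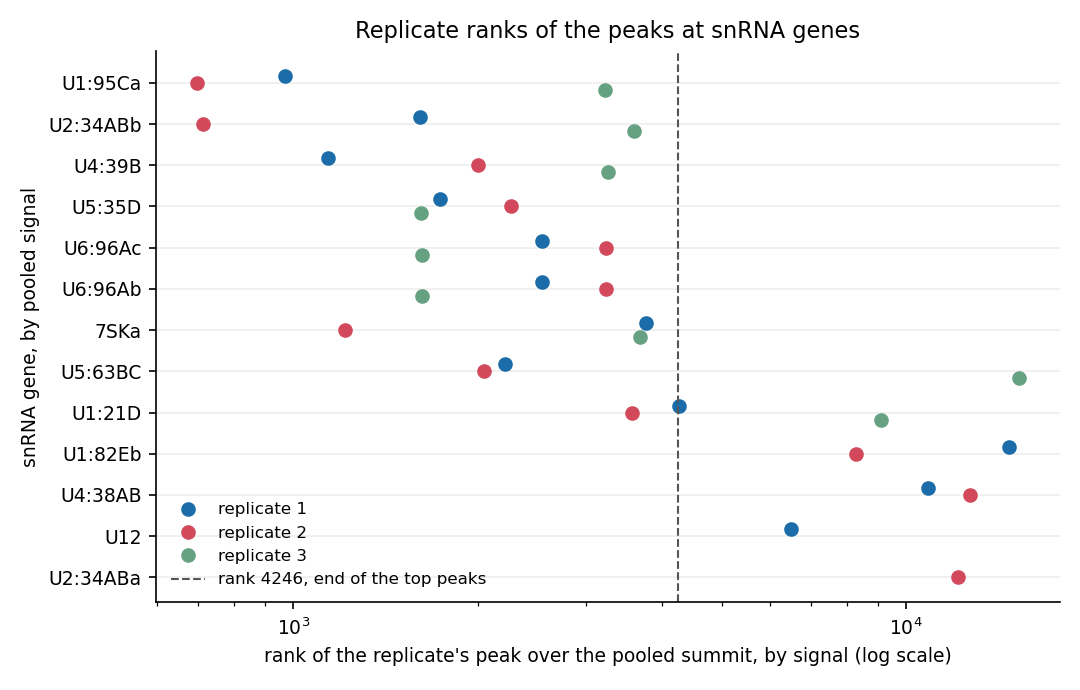
Rank of the peak that covers the pooled summit in each replicate's own list (x axis, log scale) for the 13 snRNA genes with a pooled summit, ordered by pooled signal. The dashed line is rank 4246. Points missing from a line mean that the replicate listed no peak there, which was so for the 4 genes at the bottom.

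The 9 snRNA genes with a strong summit were supported unevenly by the replicates. Top peaks of all 3 replicates covered the summit for 7 genes, of a pair of replicates for 1 (U5:63BC) and of 1 replicate for 1 (U1:21D). Replicate 3 placed the peak farthest down its list at U1:95Ca, U2:34ABb, U4:39B, U5:63BC and U1:21D, and nearest the top at U5:35D and U6.

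The strongest summit of most of these genes lay after the start. For 8 of the 9 genes it was downstream of the first base, at a median of 136 bp, and for 6 it was inside the transcribed sequence, 46 to 183 bp from its first base. No 50-base window of the gene was unique at U1:95Ca, U1:21D and U2:34ABb, and 44.6% were at U5:63BC. The place of the summit inside such genes is therefore uncertain. With the pooled list, the strongest summit was downstream at 12 of 13 genes (median 129 bp) and inside the gene at 9. Weaker pooled summits also lay upstream. Counting these, 4 of the 13 genes had a summit before the start. At U1:21D one with a signal of 42.8 lay 57 bp before it, on the ATTCNCAA letters, and at 7SKa one with a signal of 30.4 lay 70 bp before it. The host genes of snoRNAs described below differed, with 44 of 52 strong summits upstream of the start and a median of −70.5 bp. Their summits were sought within 500 bp of a start, whereas those of snRNA genes were sought within 500 bp of any base. The range searched at snRNA genes thus reached farther downstream. Within 100 bp of the 9 distinct strong summits near snRNA genes, ATTCNCAA was found at 1, any CANNTG at 5, and CAACTG at none, although 5 of the 9 genes have CAACTG in the promoter window. Any CANNTG was found at 62.1% of all strong summits. Of the 10 CANNTG classes searched, CAGATG was found most often, at 3 of the 9, against 7.04% of all strong summits. It was also at 4 of the 14 distinct strong summits near snoRNA genes, and these differences were not tested.

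**Figure D4:**
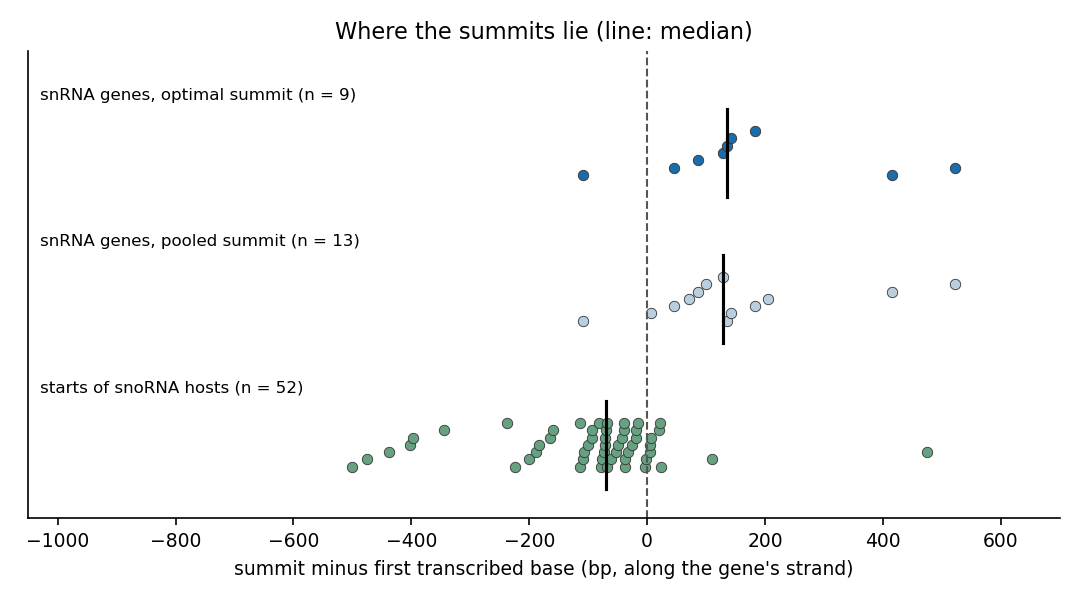
Distance of the best summit from the first transcribed base (bp along the gene's strand, x axis) for the 9 snRNA genes with a strong summit, the 13 with any pooled summit, and the 52 snoRNA hosts with a strong summit at a start. Vertical bars are medians, at 136, 129 and −70.5 bp.

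Over the promoter windows, searched on both strands, ATTCNCAA was found in 96.9% of the 32 snRNA genes, 8.92% of the 269 snoRNA genes and 5.93% of all other annotated genes. CAACTG was found in 46.9% of snRNA windows, which includes the matches that overlap ATTCNCAA, against 20.5% of all other genes. CAGCTG, another E-box, was found in 3.13% of snRNA windows against 16.2% of all other genes. ATTCNCAA was chosen as letters that the snRNA genes share, so its high share among them follows from that choice. All these letters describe the windows and were not tested as binding sites.

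Of the 269 snoRNA genes 15 had a strong summit nearby, 5.58%, at 14 distinct summits. By name the set holds 106 H/ACA pseudouridylation guides, 77 C/D methylation guides, 21 orphans without a named target, 16 scaRNAs, 3 U3 genes and 46 with other names. Strong summits lay near 5 H/ACA guides, 2 C/D guides, 5 orphans, 1 scaRNA, 2 with other names and no U3 gene. For most hosted genes the summit belonged to the start of a host. Of the 11 hosted snoRNA genes with a strong summit, 7 had it within 500 bp of a start of their own host, 1 within 500 bp of another gene's start, and 3 at no start. Of the 35 hosted snoRNA genes that lie within 500 bp of a host start, 7 had a strong summit. Of the 212 that lie farther, 4 did.

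The highest signal was at Psi28S-2949, an H/ACA guide for 28S rRNA in Uhg4, with 432 and ranks of 314, 424 and 252. Or-CD11a in RpL28 had 417 and ranks of 403, 474 and 285. Psi18S-1275, an H/ACA guide for 18S rRNA in RpS29, had 333 and ranks of 344, 721 and 914. All 3 summits lay within 100 bp of the host's own start and in the top peaks of every replicate. Psi28S-1232 in RpL17 followed with 250, and Me28S-A774b in RpS12, a C/D guide for 28S rRNA, with 227. Psi18S-920 in RpL10Ab had 127, and its ranks of 4879, 4399 and 1480 put it in the top peaks of replicate 3 only. Some summits lay away from the start of any gene that is not itself a snRNA or snoRNA gene. Or-ACA6 and Or-CD13, both antisense to egr, shared a strong summit of signal 260 that lay 3376 bp from the nearest other gene's start, with ranks of 1023, 695 and 992. Or-CD4 had 129 at a summit 3099 bp from the start of its host Uhg5. By contrast, snoRNA:185, outside genes, had 185 at a summit 22 bp before its own first base, with tRNA:Glu-TTC-1-5 starting 357 bp away. The scaRNA gene next to U1:21D was counted through the summit of U1:21D, and its own first base was 570 bp from it.

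Strong summits were frequent at the starts of the host genes, whose promoters drive the hosted snoRNAs. The 247 hosted snoRNA genes lie in 92 host genes, and 52 of these had a strong summit within 500 bp of a start, 56.5% (46.3 to 66.2%), against 22.6% of protein-coding genes. A pooled summit was found at 78 hosts. Every annotated start of a gene was searched, in hosts and in protein-coding genes alike, so genes with more starts had more bases searched. The number of starts was not compared between them. In the top peaks of replicates 1, 2 and 3, 57.6, 53.3 and 59.8% of hosts were counted (mean 56.9 ± 3.32, SD, n = 3). Protein-coding genes with no snoRNA inside reached 22.1, 21.6 and 21.8%. The difference of 35.1 percentage points ± 3.16 (SD, n = 3) was positive in 3 of 3 replicates (exact sign-flip p = 0.25, the smallest possible). Top peaks of all 3 replicates covered the summit at 41 hosts. At 26 of the 52, the start of another gene lay within 500 bp of the summit as well, so the peak cannot be assigned to the host alone.

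Ribosomal protein genes were recognised by symbol, and paralogs were not left out. They gave 23 of these 52 hosts. Of 28 ribosomal protein hosts 23 had a strong summit at a start, 82.1% (64.4 to 92.1%), and of 65 ribosomal protein genes with no snoRNA inside 43 did, 66.2% (54.04 to 76.5%). In the replicates' top peaks the shares were 78.6% ± 6.19 for the hosts and 65.1% ± 0.888 for the others (SD, n = 3 each). In replicates 1, 2 and 3 the hosts stood at 75.0, 75.0 and 85.7% and the others at 64.6, 66.2 and 64.6%, and the intervals of the shares in the optimal list overlap. Other protein-coding genes with no snoRNA inside stood at 22.2% (3064 of 13798). Of the hosts that are neither ribosomal protein nor Uhg genes, 27 of 57 had a strong summit, 47.4%. The Uhg genes, whose spliced transcripts code for no protein and serve to carry snoRNAs, had 2 of 7, 28.6% (8.22 to 64.1%).

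The sequence TATCGATA, the core of the DNA replication-related element of fly promoters, was found in 23.1% of the promoter windows of the 52 hosts with a strong summit and in 19.6% of those of all 92 hosts, against 9.28% of other protein-coding genes. It was found in none of the 32 snRNA windows. Within 100 bp of the strong summits it was found at 7 of the 52 host summits, 13.5%, against 5.79% of all strong summits. E-box cores went both ways. CAGCTG was found at 2 of the 52, 3.85%, against 11.2% of all strong summits, and CACGTG at 5, 9.62%, against 2.61%. Any CANNTG was found at 59.6% of the host summits, against 62.1% of all strong summits. The letters around TATCGATA, in capitals, are shown for 3 hosts whose summit also lies near the snoRNA inside, along the strand of the host in Release 6 (RpL28, 3L:3223019-3223078, minus strand; RpS29, 3R:9778031-9778090, plus strand; RpS12, 3L:13023285-13023344, plus strand).
RpL28: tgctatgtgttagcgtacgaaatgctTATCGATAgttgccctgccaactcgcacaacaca
RpS29: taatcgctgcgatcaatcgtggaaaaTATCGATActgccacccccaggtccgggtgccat
RpS12: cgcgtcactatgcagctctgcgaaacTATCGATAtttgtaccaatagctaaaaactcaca

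The 10 hosts with the highest signal at a start were of mixed function. Stt3A, a subunit of the oligosaccharyltransferase, had 821 with ranks of 74, 72 and 99, but its summit lay 403 bp before the start and 206 bp from that of bves. Msp300, a nesprin that anchors nuclei in muscle, had 819 with ranks of 83, 112 and 68, and its snoRNA lies 50634 bp from the nearest start. The large-subunit protein gene RpL14 had 569 with its summit 40 bp before the start, and 87 bp from the start of Nelf-E. RpS20 had 519, CG1142 had 500, CG12316 had 491 and Uhg4 had 432. RpL28 had 417, lola, a zinc-finger factor of axon guidance, 416, and RpL30 343.

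Strong peaks were spread over hosts of few and of many snoRNA genes. A strong summit was found at 30 of 55 hosts of 1 snoRNA (54.5%), at 15 of 23 hosts of 2 to 4 (65.2%) and at 7 of 14 hosts of 5 or more (50%). Among the last were RpS5a, with 14 snoRNA genes and a signal of 312 at ranks of 612, 891 and 417, and RpS16, with 5 and 336. Uhg4 with 7 and RpL28 with 5 are given above. kra, a translation regulator with 8, had 162, and Hrb98DE, an RNA-binding protein of the hnRNP A family with 7, had 150. RpS7 with 7 had 97.3 and ranks of 4870, 3130 and 4283, in the top peaks of replicate 2 only. The starts of the hosts of the most snoRNA genes were in the pooled list alone. Arpc2, a subunit of the actin-nucleating Arp2/3 complex with 17 snoRNA genes, had 39.1 at its start, and Uhg1 with 16 had 87.4. Inside Arpc2, 831 bp from its start and 427 bp from Psi18S-525a, lay a strong summit whose signal was 107, at ranks of 2882, 2961 and 10126. dom, a chromatin remodeller with 15, had 90.5, just under the lowest signal of the optimal list, and Uhg5 with 11 had 45.6 at its start, apart from the strong summit at Or-CD4. Nop60B, the pseudouridine synthase of H/ACA particles, hosts 7 and had 62.7, CG10576 with 5 had 59.7, and lncRNA:CR45184 with 5 had no pooled summit. Of the hosted snoRNA genes, 123 of 247 lie in a host with a strong summit and 124 in one without. Each was given 1 host. Psi18S-531 thus counts as without through lncRNA:CR42491, although that gene lies inside RpL22, which had a strong summit at its start. The 5 snoRNA genes of lncRNA:CR45184 likewise also lie inside Sf3b3. That gene was counted with 4 others and had a pooled summit of signal 67.1 at its start.

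**Figure D5:**
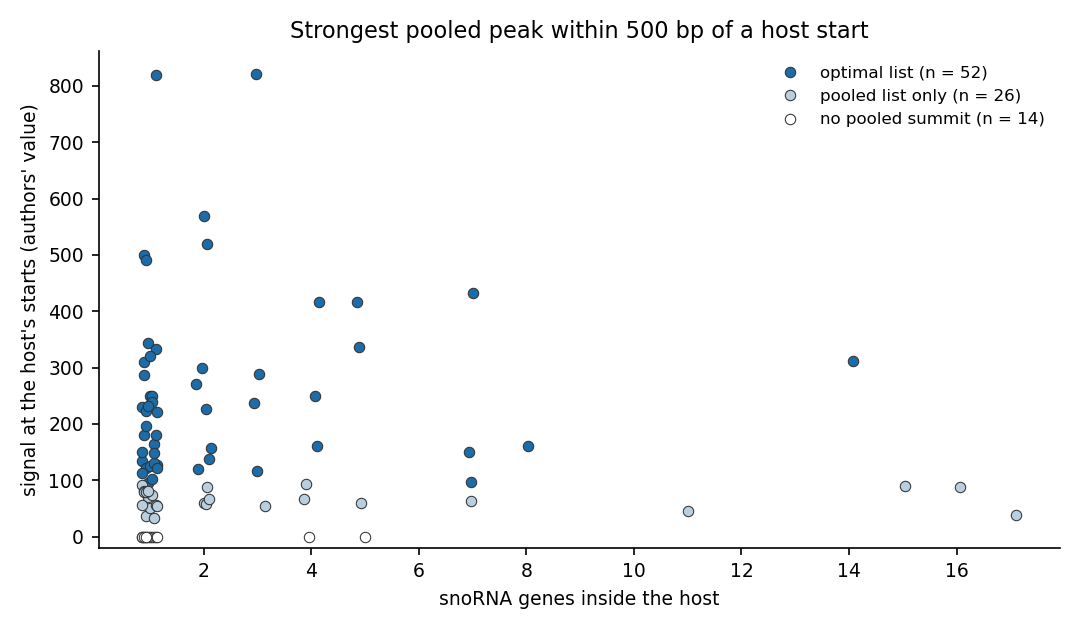
Signal of the strongest pooled peak within 500 bp of a host start (authors' value, y axis) against the number of snoRNA genes inside the host (x axis, points set apart sideways) for the 92 hosts. Filled dark points are the 52 strong peaks, pale points the 26 pooled peaks, and open points at 0 the 14 hosts with no pooled summit. The hosts of 15 to 17 snoRNA genes all lie below 92.7, the lowest signal of the optimal list.

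The protein genes that build, transcribe or process these RNAs were counted at their starts from lists taken from textbook knowledge. Of 83 listed genes 70 were matched by symbol, and 32 of these had a strong summit within 500 bp of a start, 45.7%, which can be set beside the 22.6% of protein-coding genes above. At 25 of these 32 the start of another gene lay within 500 bp of the summit as well, as at Bdp1, Brf and TfIIB, so those peaks cannot be assigned to the listed gene alone. Among the factors of snRNA promoters, 7 of 11 had one. That list joined the snRNA promoter complex SNAPc with general factors of RNA polymerase II and III. Of the SNAPc subunits, Pbp45 had a strong summit with 109, and Pbp49 with 68.3 and Pbp95 with 77.1 had pooled summits only. The RNA polymerase III factor subunits Bdp1, with a signal of 1090, and Brf, with 659, were the strongest, followed by the general RNA polymerase II factors TfIIA-S with 375 and TfIIB with 288. Among subunits of Integrator, which cuts the ends of snRNAs, 7 of 13 had one, led by IntS6 with 472, IntS9 with 362, IntS11 with 327 and IntS10 with 295. Among snoRNP assembly factors 5 of 7 had one, with 246 at Nopp140, 219 at rept, 167 at pont and 152 at Nufip. Of the core snoRNP proteins, 2 of 6 had one: the methyltransferase Fib with 249 and NHP2 with 163.

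The proteins that form rings on snRNAs and the other snRNP proteins were counted in the same way. None of 6 matched Sm genes had a strong summit, a count too small to set apart from the 22.6% of protein-coding genes, while 5 of the 6 had a pooled summit, such as SmD3 with 84.3 and SmB with 76.4. Of 4 matched Lsm genes, LSm1 had one with 94.98. Of 10 matched genes of snRNP-specific proteins 5 did, among them Prp31 with 207, Sf3b1 with 164, U4-U6-60K with 161 and snf, the U1 and U2 protein, with 149. Of 14 genes of snRNA export, assembly and the Cajal body 5 did, among them Ars2 with 216, Smn with 180, Cbp20 with 173 and icln with 137.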

How the data were processed

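HLH54F-GFP ChIP-seq of whole embryos was done in 3 biological replicates, with chromatin fragments of 200 to 800 bp per the labels. The authors deposited peak lists in dm6 with a signal value per peak. The sources used here do not state its scaling, and it only ranked peaks of the same list. A −log10 q-value, also deposited by the authors, was not used in any test. Summits are the deposited offsets from the peak starts. Per the labels, the 3 replicates name the same control experiment, which was not analysed here. The sources used here name no aligner, peak caller or IDR setting, and the dm3 lists were not used here. Every strong peak is also in the pooled list, so neither list is independent of the replicates.

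Genes came from Ensembl release 115 (BDGP6.54), transposable elements left out. Members and gene lists were chosen with earlier results of these data known, as were the comparisons. A hosted gene lies within another gene on the same strand, with 243 of the 247 hosted snoRNA genes wholly in an intron. Where several genes held it, those with it in an intron came first, and the shortest was taken as the host. Unique 50-base windows were counted on both strands of the 6 arms. ATTCNCAA, copy uniqueness, the other snRNA genes, the ribosomal protein split and the short-gene backgrounds were added after seeing the data. Promoter windows run from 250 bases before to 50 after the start.

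Genes named were the free-standing snRNA genes with a strong summit and others of their kind. They also included the 10 hosts and the 10 snoRNA genes of highest signal and hosts of 5 or more snoRNA genes. Up to 4 genes per list were given with values. The other snRNA genes, the SNAPc subunits, Sf3b3, 2 Sm genes and 3 closing examples were named after their values were seen. Shares have 95% Wilson intervals. Replicate differences were tested by an exact sign-flip permutation test. The gene counting was tested on simulated summits. Python 3.11.15, pandas 2.3.3, scipy 1.17.1 and Biopython 1.88 were used.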

Additional observations from a re-analysis of the deposited data

How the results depend on the processing

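Of 60 alternatives, 18 left the result within the spread or interval set for it and 42 moved it. The difference between snRNA and hosted snoRNA genes stayed positive in each of its alternatives; the other results are single shares with no direction, and the shares of other genes were not recomputed under them. For all 301 genes the strong share of 7.97% became 3.99% at 250 bp, 20.6% at 1000 bp, 11.96% by peak overlap, 4.65% with the stronger 2123 peaks, 5.32% with support from all 3 replicates, 6.98% from the 5′ end only and 13.8% per locus, and 5.32 to 5.98% without 1 replicate. The pooled share of 29.2% became 60.5% at 1000 bp and 43.8% per locus; the stronger 2123 peaks (4.65%), replicate support (5.32%) and leaving out 1 replicate (5.32 to 6.31%) reduce it to strong peaks by construction. For free-standing snRNA genes, 57.1% became 42.9% at 250 bp and with support from all replicates, 35.7% with the stronger 2123 peaks, 28.1% over all snRNA genes, and 42.9 to 50% without 1 replicate. For hosted snoRNA genes, 4.45% became 1.62% at 250 bp, 18.6% at 1000 bp, 8.91% by peak overlap, 2.02% with the stronger 2123 peaks, 2.43% with support from all replicates, 11.96% per host, 5.06% with a host on either strand, and 2.43 to 2.83% without 1 replicate. For host starts, 56.5% became 51.1% at 250 bp, 39.1% with the stronger 2123 peaks, 44.6% with support from all replicates and 45.7 to 51.1% without 1 replicate. The difference between snRNA and hosted snoRNA genes, 45.8 percentage points, became 33.8 at 250 bp, 30.8 at 1000 bp and 38.5 with whole replicate lists, and 42.4 to 49.3 without 1 replicate. For the strong shares, the stronger 2123 peaks, support from all replicates and leaving out 1 replicate each keep only part of the strong summits. These settings can only lower such a share, so the fall alone does not show dependence on 1 replicate. Apart from the reductions by construction, the cause was not tested. No paired analysis was possible because the labels give 1 group; classes of genes were instead compared within each replicate, as reported. Weak peaks are limited by a depth that is unknown.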

Other observations

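Of the 12 snoRNA genes outside other genes, 2 had a strong summit, 16.7%, against 4.45% of the 247 hosted snoRNA genes, and 10 had a pooled one, 83.3% (95% Wilson interval 55.2 to 95.3%), against 24.3%. The difference was not tested. Of the 10, 3 neighbouring genes share 1 pooled summit, and the scaRNA gene was counted through the peak of U1:21D. The 3 genes of U3, the C/D RNA needed to cut the precursor of 18S rRNA, are among the 12. They have ATTCNCAA at the place where snRNA genes have it. Pooled signals were 57.5 at U3:9B and 57.4 at U3:54Ab, both listed in replicates 1 and 2 and not in replicate 3, and U3:54Aa had no pooled summit. Of all 269 snoRNA genes 5 have the letters at that place, and none of the 5 had a strong summit within 500 bp.

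Outside the snRNA and snoRNA genes, 16 of 17863 annotated genes, 0.0896%, have ATTCNCAA on their own strand with its first base 65 to 56 bases before the start. They include RNaseMRP:RNA, mir-34 and tRNA:SeC-TCA-1-1, and 4 of the 16, 25%, had a strong summit within 500 bp of the gene, a share near the 24.2% of all other annotated genes.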
